A study of Mus musculus with 32 samples.

Results

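The livers of mice given corticosterone (Cort) were compared with the livers of mice given vehicle (Veh), all on the normal protein diet (NPD). The members are the 4 liver libraries labelled NPD Cort and the 4 labelled NPD Veh, chosen by those labels alone, which makes 8 of the 32 libraries of the series. Both groups were C57BL/6 male mice (C57BL/6J in the study's methods), 10 weeks old, that ate a diet with 20% of its energy as protein, and treatment lasted 7 days, with Cort or its ethanol vehicle given in the drinking water. The other 24 libraries came from livers of mice on a high protein diet (HPD, 60% of energy as protein) and from epididymal white adipose tissue (eWAT) of both diets, again with 4 libraries for each group of Cort or Veh. RNA was measured with QuantSeq, which reads a short stretch at the 3′ end of each polyadenylated transcript, so that the count of a gene does not grow with its length. Levels are given in CPM, the counts of a gene scaled to a common library total after TMM scaling, and changes as the log2 fold change of Cort against Veh with its standard error. The labels do not say that the 4 replicates were separate animals, so a p-value measures the spread between these libraries.

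Corticosterone is the main glucocorticoid of mice. It enters cells, binds the glucocorticoid receptor encoded by Nr3c1, and the receptor then moves to the nucleus and binds DNA at glucocorticoid response elements or works through other bound factors. In liver, glucocorticoids are known for raising glucose production, amino acid catabolism and lipid storage, for acting together with cytokines on acute phase proteins, and for dampening immune genes in resident macrophages and lymphocytes.

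The 8 libraries held between 8933307 and 15478670 counts. Hepatocyte markers were abundant in each of them, with a summed level of 99510 to 136900 CPM in Veh and 130800 to 154400 CPM in Cort. The library labelled NPD Cort 3 also held skeletal muscle transcripts. Acta1, the actin of skeletal muscle, stood at 282 CPM there, against 0.236, 4.06 and 0 CPM in the other Cort libraries and at most 0.108 CPM in Veh. Of 127 muscle genes in the list, 34 were set aside because they reached at least 5 CPM in that library and at least 4 times the highest of the other 15 liver libraries. Of these 34, 8 passed the low-count filter, and none was called by edgeR, DESeq2 or limma voom, with 7 at an unadjusted p below 0.05. The 93 muscle genes that were kept summed to 166 to 218 CPM in Veh and 261 to 470 CPM in Cort. Of them, 18 were tested, all with a positive log2 fold change (median 0.82, and 0.45 without NPD Cort 3). Only 1 of the 18 was called higher, and 5 were without HPD Veh 4. A library of the other diet, HPD Veh 4, stood apart from the other 15 liver libraries on the second principal component (20.3% of the variance), with a hepatocyte marker sum of 53740 CPM. It enters the results on the NPD through the shared estimate of spread.

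Cort changed 998 of 12274 genes tested (8.13%) in liver on the NPD at an adjusted p below 0.05 in edgeR's quasi-likelihood test, of which 569 (4.64%) rose and 429 (3.50%) fell. Among the genes that rose, 276 had a log2 fold change of at least 1 and 95 of at least 2, and among those that fell 258 were at -1 or less and 93 at -2 or less. The 4 Cort values lay wholly above or below the 4 Veh values for 924 of the 998 genes, and for 18.5% of all genes tested. The median log2 fold change over all genes tested was -0.00. Without NPD Cort 3 the count was 576 (4.60%, with 2.77% higher and 1.83% lower), without NPD Veh 1 it was 645 and without NPD Veh 2 it was 556. Without HPD Veh 4 it was 1565 (12.6%, with 6.85% higher and 5.79% lower). All 998 genes were called again without HPD Veh 4, 556 of them without NPD Cort 3, and none changed sign in either fit. Small counts of called members in a list moved with single libraries as well. Ranges over the 16 fits that each left out 1 liver library are therefore given with them. Each such count is to be read beside the 4.64% and 3.50% of all genes tested. With the 2 NPD groups fitted alone, 1684 genes (14.7%) were called, among them 948 of the 998.

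**Figure D1:**
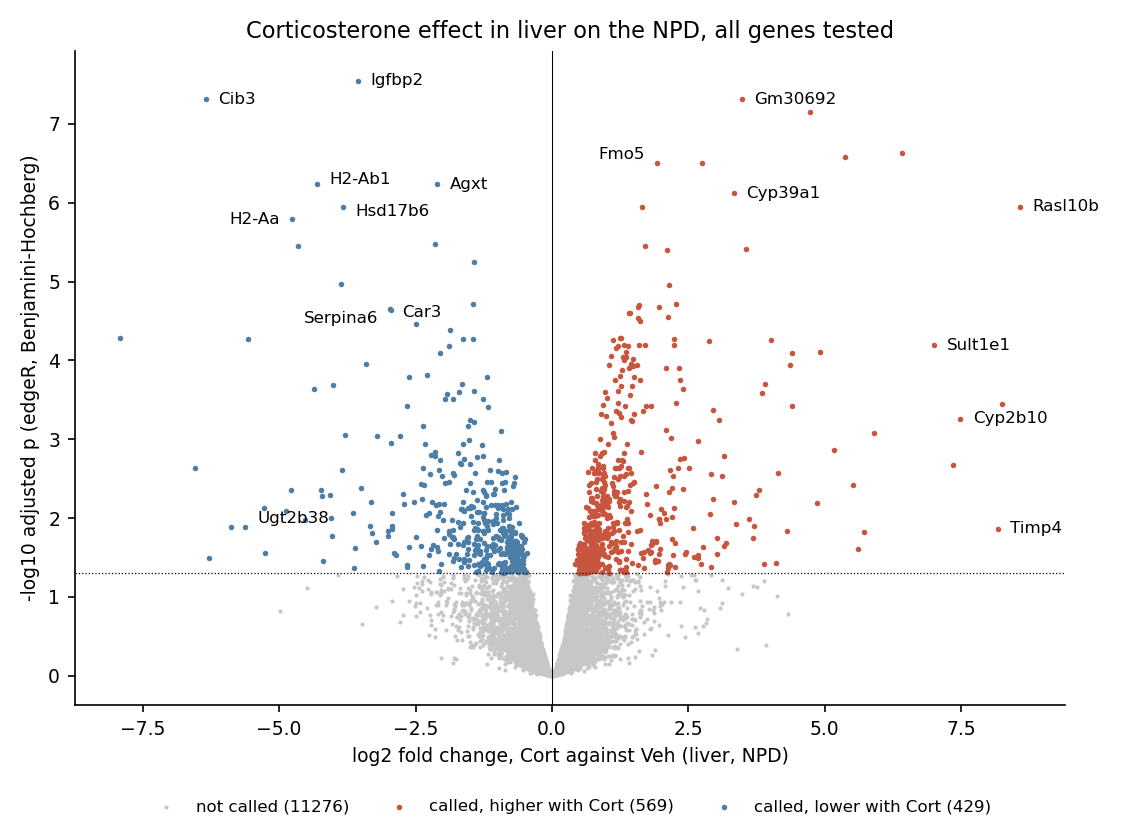
Log2 fold change of Cort against Veh in liver on the NPD (x axis) against -log10 of the adjusted p (y axis), 1 point per gene tested, with the 569 genes called higher and the 429 called lower coloured and the named genes labelled. Igfbp2 and Cib3 have the smallest p among the genes that fell, Gm30692 and E030018B13Rik among those that rose.

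The genes with the smallest p among those that fell were led by Igfbp2, which encodes a secreted binding protein for insulin-like growth factors made by hepatocytes. Igfbp2 (chr1:72824503-72852474, GRCm38) was at 248, 179, 279 and 209 CPM in Veh and at 24.2, 17.8, 19.6 and 16.4 CPM in Cort. The groups stood far apart, with the 4 Cort livers close together. Expression was 11.7-fold lower, with a log2 fold change of -3.55 ± 0.24 (SE, n = 4 and 4) and an adjusted p of 2.82e-08. Cib3, which encodes a calcium and integrin binding protein, was at 10.5, 6.60, 9.0 and 7.66 CPM in Veh and at 0.157, 0, 0.232 and 0 CPM in Cort, which is 5 counts in all 4 Cort libraries together (-6.35 ± 0.46, adjusted p = 4.9e-08). Agxt, the peroxisomal enzyme that detoxifies glyoxylate, was at 130, 148, 129 and 121 CPM in Veh and 41.4, 31.7, 26.1 and 23.6 CPM in Cort (-2.11 ± 0.19, adjusted p = 5.86e-07). Genes named for the smallest p were taken only where the 4 Cort and 4 Veh values did not overlap. The separation of Igfbp2, Cib3 and Agxt, and of other genes named by that rule, was fixed by this choice.

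Among the genes that rose with the smallest p were 2 flavin-containing monooxygenases, enzymes that oxidize nitrogen and sulfur atoms of drugs and dietary compounds. Fmo5 was already abundant, at 299.5, 302, 293 and 414 CPM in Veh, and stood at 1252, 1133, 1297 and 1288 CPM in Cort. That was a 3.80-fold rise (1.93 ± 0.16, adjusted p = 3.13e-07). Fmo1 was at 33.8, 38.5, 47.4 and 45.3 CPM in Veh and 126, 128, 130 and 134 CPM in Cort (1.65 ± 0.16, adjusted p = 1.13e-06). Another member, Fmo2, rose from 5.07, 5.62, 6.51 and 5.77 CPM to 23.1, 36.4, 19.5 and 29.6 CPM (2.24 ± 0.28, adjusted p = 5.37e-05). The groups did not overlap for any of the 3 genes, which for Fmo5 and Fmo1 was a condition of the choice.

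Other genes of this set had fewer counts in Veh. Myom3, which encodes a myomesin of striated muscle, was at 0.885, 0, 0.624 and 0.689 CPM in Veh and at 24.4, 21.5, 35.5 and 14.9 CPM in Cort. All 4 Cort livers carried it, so it was not set aside with the muscle genes of NPD Cort 3 (5.36 ± 0.42, adjusted p = 2.65e-07). Rasl10b, a Ras-like GTPase gene, had 1 count in the 4 Veh libraries and stood at 14.2, 12.4, 14.4 and 7.69 CPM in Cort, a ratio of 530 with a 95% counting interval of 94.8 to 20981 (adjusted p = 1.13e-06). Such intervals cover counting error only. The gene model Gm30692 (20.4, 18.3, 19.3 and 27.1 CPM in Cort against 1.37, 1.95, 1.96 and 2.32 CPM in Veh) had the smallest p among the genes that rose, with a log2 fold change of 3.48 ± 0.25 and an adjusted p of 4.9e-08. E030018B13Rik (4.73 ± 0.36) and Plcxd1 (3.55 ± 0.37), a gene for a phospholipase C domain protein, also rose. Timp4, an inhibitor of matrix metalloproteinases, had 2 counts in Veh, and its Cort values of 14.0, 0.530, 47.2 and 1.0 CPM were far from each other (ratio 340, 95% counting interval 93.9 to 2816, adjusted p = 0.0137).

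**Figure D2:**
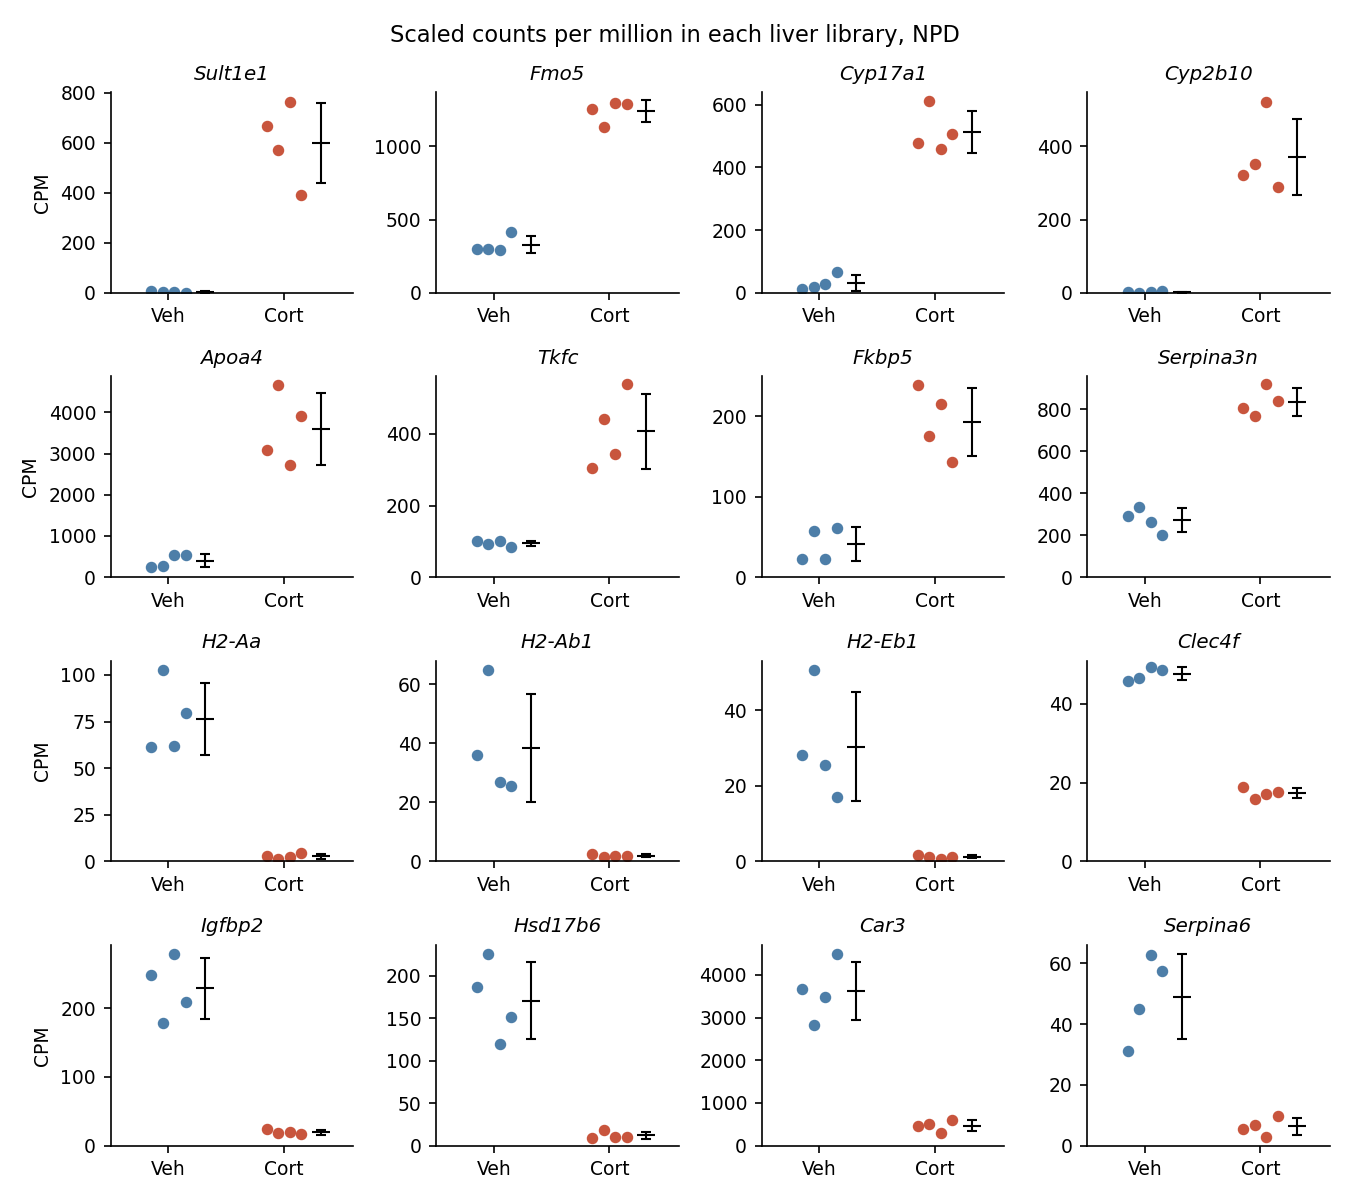
CPM (y axis, from 0) of 16 genes in the 4 Veh and 4 Cort livers on the NPD, 1 point per library with the mean and SD. Igfbp2 lies between 179 and 279 CPM in Veh and between 16.4 and 24.2 CPM in Cort, while Fmo5 is at 414 CPM or less in Veh and at 1133 CPM or more in Cort.

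The glucocorticoid pathway itself was examined through the receptor, the proteins that set the supply of the hormone and the classical target genes. Nr3c1, the receptor gene, was at 42.9, 40.6, 43.1 and 53.7 CPM in Veh and at 37.0, 28.4, 41.3 and 38.3 CPM in Cort, with overlapping groups (-0.31 ± 0.19, adjusted p = 0.363). Hsd11b1, which regenerates active glucocorticoid inside hepatocytes, did not pass the test (-0.09 ± 0.41, adjusted p = 0.924). Serpina6, which encodes corticosteroid-binding globulin, the plasma carrier of corticosterone, fell 7.70-fold, from 31.0, 45.0, 62.6 and 57.3 CPM to 5.59, 6.88, 2.94 and 9.88 CPM (-2.94 ± 0.32, adjusted p = 2.32e-05).

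Of 22 listed receptor targets, all of which passed the low-count filter, 4 rose and 1 fell, with a median log2 fold change of 0.10 (4 rose in each fit that left out 1 library, and 0 to 2 fell, none without NPD Veh 2, NPD Veh 4, NPD Cort 3 or NPD Cort 4). Fkbp5, the chaperone that lowers the receptor's affinity for its ligand, rose from 23, 57.5, 22.7 and 61.6 CPM to 239, 175, 216 and 143 CPM, without overlap (2.23 ± 0.45, adjusted p = 0.00744). Lcn2, which encodes the siderophore-binding lipocalin 2, rose from 5.31, 8.11, 7.57 and 3.62 CPM to 169, 269, 169 and 106 CPM (4.86 ± 0.92, adjusted p = 0.00652). Gadd45b, a stress and growth arrest gene, rose as well (4.15 ± 0.72, adjusted p = 0.00266). Other targets in common use as reporters of the hormone did not pass the test. Tsc22d3, which encodes the leucine zipper protein GILZ, was at 65.6, 162, 73.9 and 127 CPM in Veh and 155, 120, 127 and 67.0 CPM in Cort (0.13 ± 0.38, adjusted p = 0.887). The clock gene Per1 had a log2 fold change of 0.09 ± 0.34 (adjusted p = 0.91), and the metallothionein genes Mt1 (0.77 ± 0.52) and Mt2 (1.01 ± 0.63) had adjusted p-values of 0.415 and 0.381. The sign of Tsc22d3 and of Per1 turned when single NPD libraries were left out. The groups overlapped widely for Tsc22d3, and the receptor targets as a list did not move one way.

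Serpina3n, which encodes a serine protease inhibitor of the acute phase, was among 7 called genes with a palindromic glucocorticoid response element in the RefSeq promoter window (250 bases before to 50 after the start of a gene, GRCm38.p6). The letters searched were GNACA, then any 3 bases, then TGTNC, on either strand. They were found in 36 of the 9414 tested genes that had a window (0.382%), in 6 of 427 called higher (1.41%), in 1 of 323 called lower (0.310%) and in 0.537% of all genes with a window. A match describes letters, not a bound site. These genes were chosen after their values were seen, and the sequences are shown because they are the called genes with these letters before the start, in capitals, 5′ to 3′ on the strand of the gene. The sixth gene that rose, Atp6v0a4, had its match after the start and is not shown.
Serpina3n, chr12:104406600-104406672, plus strand: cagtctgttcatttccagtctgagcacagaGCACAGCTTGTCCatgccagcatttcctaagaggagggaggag
Acnat2, chr4:49408210-49408282, minus strand: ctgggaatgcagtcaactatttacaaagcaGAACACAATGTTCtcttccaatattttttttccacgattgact
Amy1, chr3:113577924-113577996, minus strand: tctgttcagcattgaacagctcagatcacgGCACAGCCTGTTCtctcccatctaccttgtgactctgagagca
Car14, chr3:95904868-95904935, minus strand: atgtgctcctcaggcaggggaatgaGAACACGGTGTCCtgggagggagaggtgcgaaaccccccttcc
Fam107a, chr14:8309855-8309927, minus strand: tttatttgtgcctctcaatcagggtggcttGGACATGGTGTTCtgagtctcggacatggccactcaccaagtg
Limd2, chr11:106160869-106160941, minus strand: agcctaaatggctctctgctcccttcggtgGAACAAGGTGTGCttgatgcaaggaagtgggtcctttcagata

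Of these, Serpina3n rose from 293, 334, 262 and 202 CPM to 808, 767, 921 and 840 CPM (1.61 ± 0.20, adjusted p = 3.19e-05). Acnat2, a peroxisomal acyltransferase gene, rose from 32.7, 20.3, 15.9 and 25.2 CPM to 123, 203, 189 and 180 CPM (2.88 ± 0.34, adjusted p = 5.6e-05). Both genes had their groups apart. Amy1, which encodes an amylase (1.16 ± 0.27, adjusted p = 0.0114), Car14, a carbonic anhydrase gene (1.48 ± 0.29, adjusted p = 0.00364), and Fam107a, an actin-associated stress gene (3.62 ± 0.81, adjusted p = 0.0103), rose too, the last with overlapping groups. Atp6v0a4, a proton pump subunit gene, had overlapping groups too (3.19 ± 0.83, adjusted p = 0.0208), and its call was lost without NPD Cort 3, NPD Veh 1, NPD Veh 2 or NPD Veh 3 (adjusted p = 0.0527 to 0.112). Limd2, a LIM domain gene, fell by 0.99 ± 0.29 on the log2 scale (adjusted p = 0.0385), a call that was lost when any of 8 libraries was left out (adjusted p = 0.052 to 0.123).

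Several genes of fructose and glucose breakdown rose with Cort, while the 2 enzymes most often used to follow glucose output did not pass the test. Of 9 listed genes of fructose and polyol metabolism, 8 passed the low-count filter, 3 rose and none fell (median 1.12). Tkfc, the kinase that phosphorylates the glyceraldehyde made from fructose, rose from 100, 93.7, 100 and 83.7 CPM to 306, 442, 345 and 539 CPM (2.11 ± 0.22, adjusted p = 3.96e-06). Khk, which phosphorylates fructose first, was at 252, 287, 342 and 409 CPM in Veh and 759, 844, 586 and 721 CPM in Cort (1.17 ± 0.33, adjusted p = 0.0329). Neither gene had overlapping groups, which for Tkfc was a condition of the choice. The call on Khk was lost when any of 7 libraries was left out (adjusted p = 0.051 to 0.102), and without HPD Veh 4 the list held 6 genes that rose.

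Of 21 genes of glycolysis and glucose sensing, all tested, 6 rose and none fell (median 0.39), and without NPD Veh 2 the number was 3. Gpi1, glucose-6-phosphate isomerase, rose from 42.4, 38.4, 50.4 and 43.7 CPM to 122, 188, 103 and 161 CPM (1.71 ± 0.23, adjusted p = 6.41e-05). Pfkl, the liver phosphofructokinase, rose by a log2 fold change of 0.93 ± 0.19 (adjusted p = 0.00468). Pklr, the liver pyruvate kinase, rose from 64.0, 44.1, 76.6 and 79.4 CPM to 228, 172, 166 and 241 CPM (1.61 ± 0.37, adjusted p = 0.0142), a call lost without NPD Veh 2 (adjusted p = 0.0525). Each of these 3 genes had its groups apart.

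Of 19 gluconeogenesis genes, all tested, 4 rose and 1 fell (median 0.32), with 2 rising without NPD Veh 1, NPD Veh 2 or NPD Cort 3. Pcx, which turns pyruvate into oxaloacetate, rose from 66.0, 61.4, 84.6 and 77.5 CPM to 155, 165, 199 and 174 CPM (1.26 ± 0.20, adjusted p = 0.000518). Fbp1, fructose-1,6-bisphosphatase, rose from 425, 440, 490 and 443 CPM to 843, 895, 722 and 672 CPM (0.80 ± 0.15, adjusted p = 0.00254). G6pc, which releases free glucose, overlapped between the groups, at 338, 500, 410 and 319 CPM in Veh and 479, 336, 376 and 426 CPM in Cort (0.05 ± 0.29, adjusted p = 0.95). Pck1, the cytosolic phosphoenolpyruvate carboxykinase, had a log2 fold change of 0.10 ± 0.24 (adjusted p = 0.854). Crtc2, a coactivator of CREB in the fasted liver, was the member that fell (-1.89 ± 0.45, adjusted p = 0.0146), and its call was lost without NPD Cort 3 (adjusted p = 0.0542) or NPD Cort 4 (adjusted p = 0.0515). Gbe1, the glycogen branching enzyme, was 1 of 2 genes that rose among 15 of glycogen metabolism, where 1 fell (ranges 1 to 4, the most without HPD Veh 4, and 0 to 1, none without 7 of the 8 NPD libraries). Gbe1 had a log2 fold change of 1.01 ± 0.21 (adjusted p = 0.00531).

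**Figure D3:**
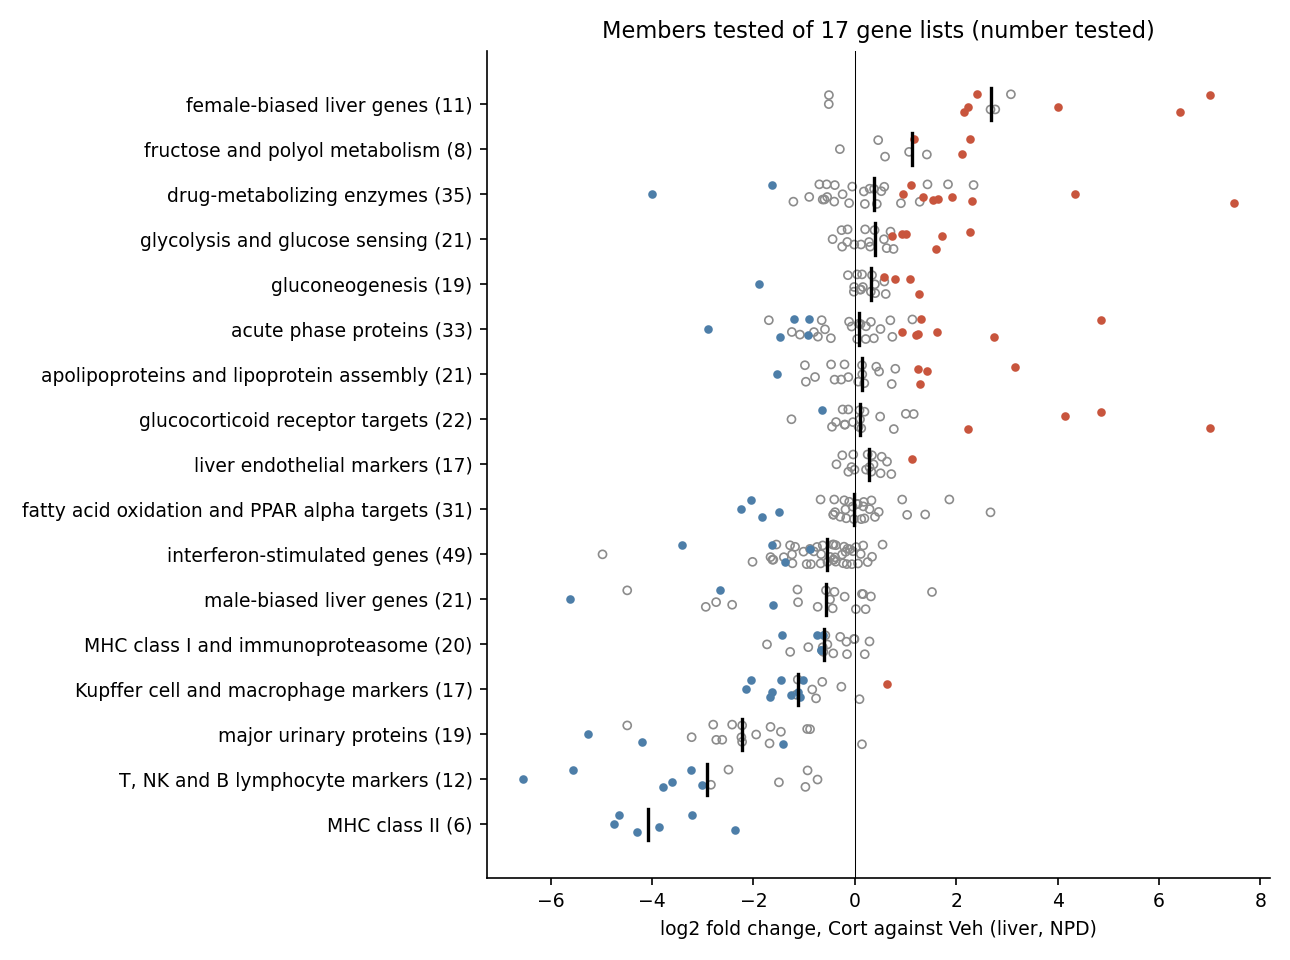
Log2 fold change of Cort against Veh in liver on the NPD (x axis) for the tested members of 17 gene lists (y axis), 1 point per gene, filled where called higher or lower, open where not called, with a bar at the median of each list. All 6 tested MHC class II genes are called lower, and the genes of gluconeogenesis lie on both sides of 0.

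A few lipid genes were called, in both directions. Of 27 genes of fatty acid and triglyceride synthesis, all tested, 2 rose and 2 fell (median 0.22). Over all genes tested, 4.64% rose and 3.50% fell. The ranges for the list were 1 to 3 and 0 to 3, with none that fell without NPD Veh 4, NPD Cort 2 or NPD Cort 3. Acaca, which makes malonyl-CoA for new fatty acids, was at 24.5, 16.7, 24.7 and 30.5 CPM in Veh and 39.6, 45.3, 50.05 and 117.6 CPM in Cort (1.39 ± 0.36, adjusted p = 0.0262). The highest value was that of NPD Cort 4, and without that library the adjusted p was 0.0689, as the call was also lost without NPD Veh 1 (0.0687), NPD Veh 2 (0.0847) or NPD Veh 3 (0.0553). Srebf1, the transcription factor of lipogenesis, fell from 20.7, 18.1, 24.2 and 43.7 CPM to 13.8, 6.35, 10.4 and 14.1 CPM (-1.25 ± 0.32, adjusted p = 0.0208). Its call was lost without NPD Cort 2 (adjusted p = 0.0594), NPD Cort 3 (0.0657) or NPD Veh 4 (0.0697).

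Among 22 genes of lipid droplets and lipid uptake, 21 were tested, 3 rose and 2 fell, and without NPD Cort 3 none fell. Cd36, the fatty acid transporter, rose from 20.8, 17.3, 30.9 and 39.6 CPM to 98.5, 147, 102 and 119 CPM (2.10 ± 0.33, adjusted p = 0.000758). Fabp1, the abundant fatty acid binding protein of liver, fell from 8094, 9379, 7600 and 6710 CPM to 1914, 2049, 1693 and 3418 CPM (-1.81 ± 0.43, adjusted p = 0.0143, and 0.0538 without NPD Cort 3). Fabp5 fell from 68.1, 66.0, 49.4 and 64.0 CPM to 5.11, 12.5, 4.64 and 8.69 CPM (-3.00 ± 0.66, adjusted p = 0.0145, and 0.0534 without NPD Cort 3). The uptake gene and both binding proteins had no overlap between groups, in opposite directions.

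Of 31 genes of fatty acid oxidation and PPARα targets, all tested, none rose and 4 fell (median -0.02), with ranges of 0 to 2, the most without NPD Veh 3, and of 3 to 4. Acaa1b, a peroxisomal thiolase, fell from 521, 456, 920 and 678 CPM to 156, 201, 89.8 and 174 CPM (-2.05 ± 0.28, adjusted p = 8.16e-05). Ehhadh, the bifunctional enzyme of the same peroxisomal pathway, fell by 1.83 ± 0.40 on the log2 scale (adjusted p = 0.0105). Bdh1, which makes the ketone body β-hydroxybutyrate in mitochondria, fell from 187, 197, 284 and 219 CPM to 61.7, 98.5, 53.3 and 99.8 CPM (-1.50 ± 0.25, adjusted p = 0.000571). The named genes that fell had no overlap between groups, while most of the list did not pass the test.

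Several genes for the export of lipid in lipoproteins rose. Of 21 apolipoprotein and lipoprotein assembly genes, all tested, 4 rose and 1 fell (ranges 4 to 5 and 0 to 3, with none that fell without NPD Veh 3, NPD Veh 4, NPD Cort 3 or NPD Cort 4 and 3 without HPD Veh 4 or HPD Cort 1). Apoa4, an apolipoprotein of triglyceride-rich particles, rose 8.93-fold, from 247, 274, 549 and 541 CPM to 3092, 4655, 2725 and 3915 CPM (3.16 ± 0.52, adjusted p = 0.00166). Mttp, which loads triglyceride onto apolipoprotein B, rose from 71.5, 71.9, 101 and 71.8 CPM to 179, 167, 202 and 225 CPM (1.29 ± 0.18, adjusted p = 0.000133). Apoc3, which restrains lipoprotein lipase, rose too (1.42 ± 0.22, adjusted p = 0.000272). The list's median was 0.14 and was -0.06 without NPD Cort 3, with most of the list not called. Of 25 cholesterol biosynthesis genes and SREBP2 targets, 3 rose and 2 fell, beside 4.64% and 3.50% of all genes tested. The ranges were 2 to 3 and 0 to 3, with none that fell without NPD Veh 4, NPD Cort 2 or NPD Cort 3.

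Of 42 genes of amino acid catabolism, 41 were tested, 5 rose and 3 fell (median 0.13, with 13 not overlapping). Over all genes tested, 4.64% rose, 3.50% fell and 18.5% did not overlap. Without HPD Veh 4, 8 of the list rose and 7 fell, beside 6.85% and 5.79% of all genes. Mat1a, the liver enzyme that makes S-adenosylmethionine, rose by a log2 fold change of 0.98 ± 0.19 (adjusted p = 0.00296), and Bhmt, which returns homocysteine to methionine, by 1.14 ± 0.23 (adjusted p = 0.00455). Of 11 genes of the urea cycle and glutamine synthesis, 10 were tested, 2 rose and none fell, and the number that rose was 1 without any 1 of 8 libraries, 7 of them on the NPD. Asl, argininosuccinate lyase, rose from 156, 164, 136 and 200 CPM to 430, 416, 333 and 340 CPM (1.21 ± 0.16, adjusted p = 6.57e-05). None of 14 amino acid transporter genes, of which 12 were tested, passed the test in edgeR's quasi-likelihood fit, and 1 did without NPD Veh 4 or HPD Veh 4. Of the 12, 2 had an unadjusted p below 0.05 in edgeR, beside 2852 of the 12274 genes tested. DESeq2 and voom called none of the 12 and voom with quality weights called 2. Fgf21, a liver hormone of protein restriction, had a log2 fold change of 0.47 ± 0.51 (adjusted p = 0.634) and the glucagon receptor Gcgr of -0.23 ± 0.17 (adjusted p = 0.459). Beside the fall of Igfbp2, Igf1 (-0.21 ± 0.24, adjusted p = 0.65) and Igfbp1 (-0.04 ± 0.71, adjusted p = 0.981) did not pass the test.

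Several of the largest changes were in genes that differ between the sexes in mouse liver, where the pattern of growth hormone release sets male and female programs. Of 25 listed female-biased genes, 11 passed the low-count filter, 6 rose and none fell, and the 14 untested genes were at 0.883 CPM or less in the 8 libraries. Cyp17a1, a steroid hydroxylase, rose 16.1-fold, from 12.1, 20.3, 27.7 and 67.3 CPM to 479, 610, 459 and 507 CPM (4.01 ± 0.45, adjusted p = 5.51e-05). Sult1e1 (chr5:87575969-87591594), estrogen sulfotransferase, which is also among the listed receptor targets, rose 128-fold, from 9.57, 3.25, 4.72 and 0.947 CPM to 668, 570, 765 and 393 CPM (7.00 ± 0.74, adjusted p = 6.41e-05). Cyp2c40, an arachidonic acid hydroxylase, rose from 12.1, 10.1, 15.2 and 8.52 CPM to 53.3, 77.6, 53.9 and 59.4 CPM (2.41 ± 0.45, adjusted p = 0.00423). Together with Fmo2 of the same list, these genes stood apart between the groups in all 8 livers. Cyp39a1, an oxysterol hydroxylase of bile acid synthesis and not on the list, rose from 2.65, 4.65, 4.28 and 6.80 CPM to 37.8, 42.7, 54.0 and 50.4 CPM (3.33 ± 0.29, adjusted p = 7.6e-07).

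Of 22 male-biased genes, 21 were tested, none rose and 3 fell (median -0.57), and without HPD Veh 4 the number that fell was 8. Nudt7, a peroxisomal coenzyme A hydrolase, fell from 857, 992, 760 and 619 CPM to 173, 91.7, 139 and 106 CPM (-2.66 ± 0.39, adjusted p = 0.000379). Ugt2b38, a glucuronosyltransferase gene, fell from 24.1, 19.6, 12.7 and 5.77 CPM to 0.865, 0, 0.387 and 0 CPM (-5.63 ± 1.21, adjusted p = 0.0128). The Veh livers differed widely among themselves for Ugt2b38, and the groups still did not overlap, but its call was lost in 2 alternative settings. Outside the list, Hsd17b6 (chr10:127990936-128007611), an enzyme of androgen metabolism, fell 14.2-fold, from 186, 226, 119 and 151 CPM to 9.36, 18.2, 9.98 and 10.6 CPM (-3.83 ± 0.33, adjusted p = 1.13e-06). Socs2, which growth hormone induces and which restrains its receptor, fell from 31.3, 71.6, 63.7 and 26.7 CPM to 9.05, 11.9, 11.4 and 11.8 CPM (-2.13 ± 0.43, adjusted p = 0.00689).

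The major urinary proteins are small pheromone carriers that male mouse liver makes in bulk from near-identical genes, and reads of 1 gene can be counted for another. Of 21 listed genes, 19 were tested, 18 of the 19 had a log2 fold change below 0 and 3 were called lower (median -2.22). Mup15 was at 58.5, 17.6, 35.8 and 21.2 CPM in Veh and 4.17, 0.265, 2.78 and 0.125 CPM in Cort (-4.19 ± 1.10, adjusted p = 0.0352), and Mup14 had a log2 fold change of -5.26 ± 1.33 (adjusted p = 0.0281). Each lost its call when any of 7 libraries was left out. None of the list was called without NPD Veh 1, NPD Veh 2, NPD Veh 4, NPD Cort 2, NPD Cort 3 or NPD Cort 4, 1 was without NPD Veh 3, 5 were without HPD Cort 1 and 14 without HPD Veh 4. The pseudogene Mup-ps20 fell too (-5.28 ± 1.05, adjusted p = 0.00749). Hectd2os, an antisense gene whose reads can be told from its partner's only where counting used strand, fell from 54.8, 62.3, 49.8 and 67.3 CPM to 1.57, 5.38, 0.696 and 2.56 CPM (-4.53 ± 0.94, adjusted p = 0.0106).

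Of 37 listed drug-metabolizing enzymes, Fmo1 and Fmo5 among them, 35 were tested, 9 rose and 2 fell (median 0.38), beside 4.64% and 3.50% of all genes tested. The ranges were 7 to 12 and 2 to 4, the most that fell without HPD Veh 4. Cyp2b10, the cytochrome P450 best known for induction through the constitutive androstane receptor, rose from 1.45, 0.108, 2.05 and 4.48 CPM to 322, 351, 522 and 289 CPM (7.48 ± 1.0, adjusted p = 0.000548). Every Cort liver was above every Veh liver by a wide margin. Por, the reductase that passes electrons to cytochromes P450, rose by a log2 fold change of 1.35 ± 0.29 (adjusted p = 0.00735), and Cyp2c29 by 1.55 ± 0.37 (adjusted p = 0.0145, and 0.051 and 0.0556 without NPD Veh 1 or NPD Veh 2). Aox3, a liver aldehyde oxidase, fell from 121, 139, 106 and 83.6 CPM to 10.8, 3.97, 3.64 and 9.44 CPM (-4.0 ± 0.50, adjusted p = 0.000208). Car3, a carbonic anhydrase that is abundant in liver and fat, fell from 3679, 2833, 3485 and 4493 CPM to 458, 509.8, 289.8 and 594 CPM (-2.97 ± 0.34, adjusted p = 2.2e-05).

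Plasma proteins of the acute phase response split. Of 34 listed, 33 were tested, 7 rose and 5 fell (median 0.08), with ranges of 7 to 9 and 2 to 7, the fewest falling without NPD Veh 4 or NPD Cort 1. Hp, haptoglobin, which binds free hemoglobin, rose from 1392, 1698, 1302 and 1308 CPM to 3546, 3410, 3202 and 3047 CPM (1.21 ± 0.18, adjusted p = 0.000243). Lbp, which carries bacterial lipopolysaccharide, rose from 61.5, 70.6, 62.4 and 56.8 CPM to 148, 137, 165 and 143 CPM (1.24 ± 0.16, adjusted p = 5.26e-05). Orm3, an orosomucoid, rose from 5.55, 6.71, 4.81 and 3.10 CPM to 34.9, 43.7, 28.2 and 27.8 CPM (2.74 ± 0.23, adjusted p = 3.13e-07). These 3 rose in every Cort liver along with Serpina3n and Lcn2, which for Orm3 was a condition of the choice. Serpina5, the protein C inhibitor gene, rose from 0.483, 0.108, 0.267 and 0 CPM to 17.5, 3.27, 31.3 and 3.38 CPM (5.90 ± 0.90, adjusted p = 0.000824), a call lost in 2 alternative settings. Hamp, which encodes hepcidin, the hormone that limits iron uptake, was among those that fell (-1.21 ± 0.25, adjusted p = 0.00511). Serinc3, which encodes a membrane protein of serine incorporation and antiviral restriction, stood outside these lists and rose from 231, 259, 214 and 281 CPM to 703, 668, 1019 and 821 CPM (1.71 ± 0.18, adjusted p = 3.59e-06).

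The genes of antigen presentation by MHC class II fell to low levels with Cort. MHC class II molecules present peptides to CD4 T cells on macrophages, dendritic cells and B cells, and their genes share a promoter module of W, X and Y boxes. The promoters of 3 members that fell are shown because they hold the same Y box letters, TGATTGG, searched on both strands and printed here in capitals, 5′ to 3′ on the strand of the gene, from RefSeq (GRCm38.p6).
H2-Aa, chr17:34287824-34287973, minus strand: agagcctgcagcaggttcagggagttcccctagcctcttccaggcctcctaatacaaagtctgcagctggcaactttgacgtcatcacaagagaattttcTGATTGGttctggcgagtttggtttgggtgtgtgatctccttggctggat
H2-Eb1, chr17:34305717-34305866, plus strand: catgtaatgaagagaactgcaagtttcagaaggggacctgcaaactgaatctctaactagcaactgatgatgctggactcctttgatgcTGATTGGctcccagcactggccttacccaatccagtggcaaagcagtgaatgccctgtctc
H2-DMb1, chr17:34153041-34153190, plus strand: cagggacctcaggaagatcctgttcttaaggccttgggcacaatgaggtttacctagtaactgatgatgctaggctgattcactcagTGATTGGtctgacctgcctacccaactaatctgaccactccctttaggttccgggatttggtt
These are the last 150 bases before the start, and the letters lie at -50 to -44 in H2-Aa, -61 to -55 in H2-Eb1 and -63 to -57 in H2-DMb1. The same letters stood in 11.5% of tested genes with a promoter window, in 11.2% of those called higher and in 12.4% of those called lower, and neither window of H2-DMa held them. H2-Ab1 had no window, and the promoter of Cd74 was not examined for them.

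All 11 listed MHC class II genes were in the table, and the 6 that passed the low-count filter fell. The other 5, among them Ciita, the coactivator that switches the class II genes on, were at 1.29 CPM or less. The 6 genes also fell whichever liver library was left out. H2-Aa (chr17:34282744-34287823), an α chain, was at 61.3, 103, 62.1 and 79.8 CPM in Veh and at 3.15, 1.15, 2.40 and 4.38 CPM in Cort. That was 27.0-fold lower (-4.76 ± 0.40, adjusted p = 1.61e-06). H2-Ab1 (chr17:34257689-34269419), its β chain, was at 36.2, 64.9, 27.0 and 25.5 CPM in Veh and 2.52, 1.41, 1.78 and 2.0 CPM in Cort (19.7-fold lower, -4.30 ± 0.35, adjusted p = 5.76e-07). H2-Eb1 (chr17:34305867-34316674), another β chain, was at 28.2, 50.6, 25.5 and 17 CPM in Veh and 1.65, 1.15, 0.696 and 1.25 CPM in Cort (25.3-fold lower, -4.66 ± 0.43, adjusted p = 3.59e-06). Cd74, the invariant chain that guides class II molecules to the endosome, fell from 40.1, 46.1, 27.7 and 21 CPM to 3.23, 1.77, 1.31 and 2.81 CPM (-3.87 ± 0.39, adjusted p = 1.07e-05). The peptide-loading chains fell by less, from 4.59, 5.41, 3.56 and 2.84 CPM to 0.393, 0.706, 0.0774 and 0.563 CPM for H2-DMb1 (-3.21 ± 0.55, adjusted p = 0.000902) and from 3.14, 4.43, 1.69 and 1.55 CPM to 0.708, 0.618, 0.309 and 0.438 CPM for H2-DMa (-2.37 ± 0.45, adjusted p = 0.00231). The lowest Veh value lay above the highest Cort value for each of the 6 genes. For H2-Aa, H2-Ab1, H2-Eb1 and Cd74 that was a condition of the choice. H2-DMa passed the low-count filter only through Veh livers, so a fall was the only direction open to it.

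Markers of resident macrophages and of lymphocytes fell in the same livers. Of 19 Kupffer cell and macrophage markers, 17 were tested, 9 fell and 1 rose, the iron exporter gene Slc40a1 (median -1.12). Between 9 and 11 fell over the fits without 1 library, while the rise was not called without any 1 of 6 NPD libraries. Their summed level was 505 to 679 CPM in Veh and 283 to 420 CPM in Cort. Clec4f, the lectin that marks Kupffer cells, fell from 45.8, 46.6, 49.3 and 48.6 CPM to 19.0, 15.7, 17.1 and 17.7 CPM (-1.45 ± 0.17, adjusted p = 1.91e-05). Adgre1, which encodes the macrophage antigen F4/80, fell from 15.6, 14.6, 9.45 and 9.55 CPM to 1.89, 2.12, 2.78 and 4.88 CPM (-2.05 ± 0.37, adjusted p = 0.00185). Timd4, a phosphatidylserine receptor of embryo-derived Kupffer cells, fell from 5.07, 6.06, 3.83 and 2.93 CPM to 0.472, 0.618, 1.55 and 1.31 CPM (-2.15 ± 0.39, adjusted p = 0.00166). Each of these markers separated the groups, which for Clec4f was a condition of the choice. Vsig4, a complement receptor, fell from 51.6, 46.4, 31.3 and 42.3 CPM to 17, 17.4, 17.1 and 20.3 CPM (-1.26 ± 0.19, adjusted p = 0.000308), and Cd5l, a macrophage survival protein, from 101, 116, 66.3 and 74.6 CPM to 21.7, 25.6, 28.6 and 36.9 CPM (-1.66 ± 0.30, adjusted p = 0.00208). In whole liver, fewer cells of a type and less RNA per cell cannot be told apart.

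Of 33 lymphocyte markers, 12 passed the low-count filter, 6 fell and none rose, with 3 falling without NPD Veh 2 or NPD Cort 3. Their sum was 24.2 to 30.1 CPM in Veh and 5.88 to 8.73 CPM in Cort. Trbc2, a constant region of the T cell receptor, was at 4.34, 3.03, 2.58 and 2.58 CPM in Veh and 0.236, 0, 0 and 0 CPM in Cort, a ratio of 55.9 with a 95% counting interval of 18.7 to 274 (adjusted p = 5.36e-05). Xcl1, a chemokine of NK and CD8 T cells, was at 1.21, 0.649, 0.891 and 0.689 CPM in Veh and had no count in Cort, at least 15.5-fold lower against a floor of 3 counts over the group (adjusted p = 0.00231). Klrk1, the NK receptor NKG2D, fell as well (-3.78 ± 0.64, adjusted p = 0.000877). Trbc2 and Xcl1 were thus at or near 0 in the Cort livers. They and Klrk1 passed the low-count filter only through Veh livers, so a fall was the only direction open to them. Sums of endothelial markers (276 to 351 CPM in Veh, 277 to 430 CPM in Cort) and of red blood cell markers (1416 to 2985 and 1388 to 3625 CPM) overlapped between the groups. The stellate cell and fibroblast sum overlapped and was mostly higher with Cort (444 to 512 and 505 to 661 CPM). It holds 1 of the genes set aside as muscle, which was high in NPD Cort 3 alone. The sum without that gene was not computed. The cholangiocyte sum was higher in every Cort liver (32.3 to 50.3 and 52.9 to 70.4 CPM), with none of its 7 tested genes called. The part of these cell types in the fall of the class II genes was not tested.

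**Figure D4:**
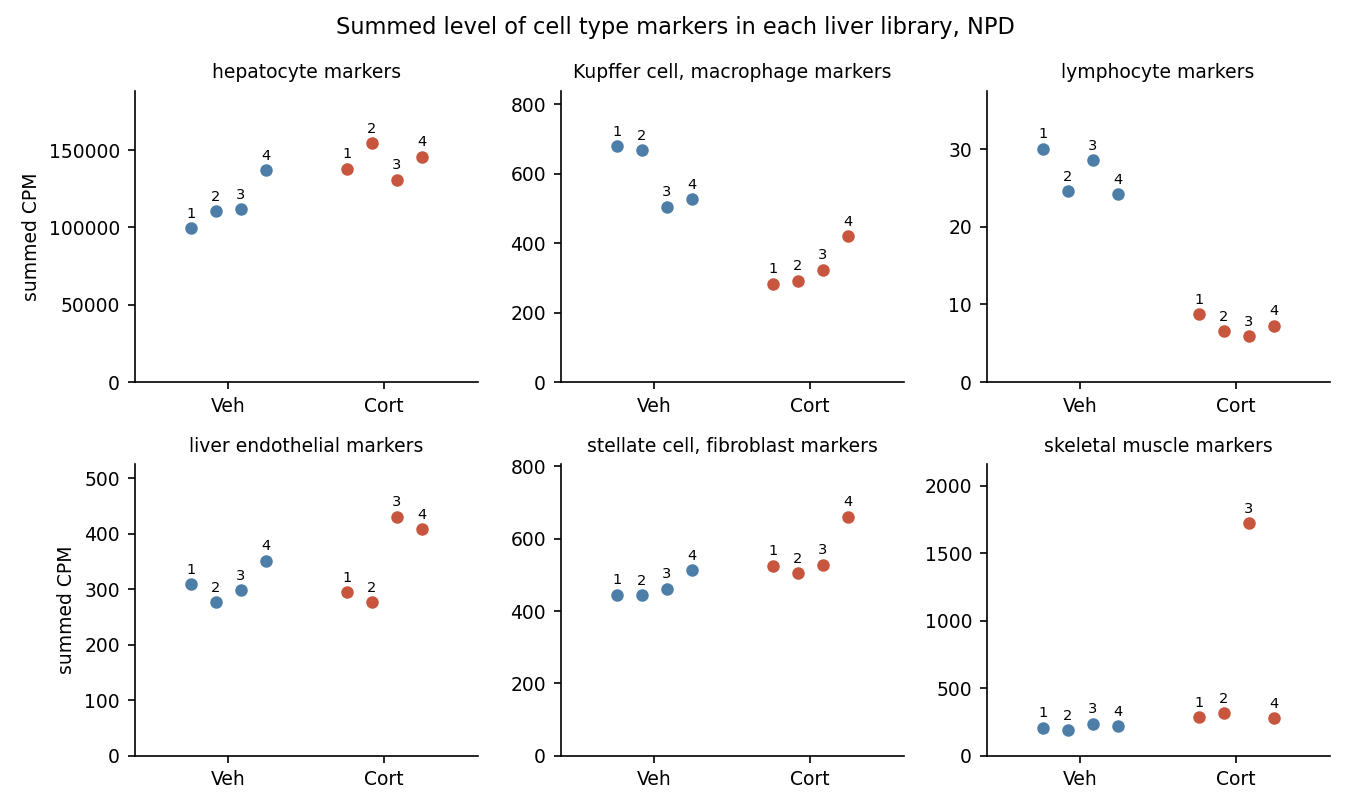
Summed CPM (y axis) of 6 lists of cell type markers in the 4 Veh and 4 Cort livers on the NPD, each number being the replicate of a library. The Kupffer cell sum runs from 505 to 679 CPM in Veh and from 283 to 420 CPM in Cort, the lymphocyte sum from 24.2 to 30.1 CPM and from 5.88 to 8.73 CPM, and NPD Cort 3 stands alone in the skeletal muscle sum at 1725 CPM.

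Other lists of immune genes fell by less at the median than the class II list, whose median was -4.08. Single members did not all fall by less, as Cxcl9 fell by more than H2-DMb1 and H2-DMa. Of 20 genes of MHC class I and the immunoproteasome, all tested, none rose and 5 fell (median -0.60), but 1 fell without NPD Veh 2, NPD Cort 3 or NPD Cort 4, 2 without NPD Veh 1, NPD Veh 3 or NPD Cort 2, and 3 without NPD Veh 4 or NPD Cort 1. H2-Q7, a nonclassical class I gene with near-identical neighbours, fell from 76.4, 80.4, 84.3 and 94.7 CPM to 33.4, 28.6, 26.5 and 35.8 CPM (-1.43 ± 0.15, adjusted p = 5.61e-06). Of 54 interferon-stimulated genes, 49 were tested, none rose and 4 fell (median -0.54), with 1 falling without NPD Veh 2, 2 without NPD Cort 1 or NPD Cort 3, and 8 without HPD Cort 1. Of 23 chemokines, 18 were tested, none rose and 3 fell, or 1 without NPD Veh 2, NPD Cort 1 or NPD Cort 2. Cxcl9, which is on both lists, an interferon-γ-induced chemokine that draws T cells, fell from 18.7, 37.6, 11.4 and 18.9 CPM to 1.02, 2.29, 1.01 and 3.69 CPM (-3.40 ± 0.43, adjusted p = 0.000111). Wfdc17, a whey acidic protein of activated macrophages, fell from 45.8, 57.9, 28.9 and 39.9 CPM to 9.36, 11.7, 8.28 and 9.44 CPM (-2.15 ± 0.22, adjusted p = 3.32e-06). Cxcl9 separated the groups, and so did Wfdc17, which was named on that condition. Of 34 genes of the Toll-like receptor and NF-κB pathway, 28 were tested, none rose and 2 fell, or none without NPD Veh 2 or NPD Cort 3. Over all genes tested, 3.50% fell.

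To see whether the liver response depended on the diet, the effect of Cort on the HPD was set beside that on the NPD. The difference between these effects was tested. By the study's methods the HPD also held less carbohydrate, so protein and carbohydrate cannot be told apart in this comparison. On the HPD, Cort changed 1114 of 12282 genes (9.07%, with 4.58% higher and 4.49% lower). Of the 998 genes called on the NPD, 892 had the same sign on the HPD, and 387 were called there with that sign, out of 1114. The share of all genes tested with the same sign on both diets was not computed. The difference between the diets passed the test for 1 gene of 12282 (0.00814%) in edgeR's quasi-likelihood fit, with 1529 genes at an unadjusted p below 0.05, and DESeq2 called 97. Without HPD Veh 4, 14 genes passed (0.113%), of which 6 were among the 998. The class II genes fell on the HPD as well, with log2 fold changes of -3.89 for H2-Aa, -4.14 for H2-Ab1, -4.36 for H2-Eb1 and -4.37 for Cd74.

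Hsd17b6 was the gene that differed. On the HPD it was at 64.4, 107, 127 and 197 CPM in Veh and 150, 108, 89.3 and 129.8 CPM in Cort, with overlapping groups and a log2 fold change of -0.06 (adjusted p = 0.931), against the 14.2-fold fall on the NPD. The difference of the effects was 3.77 ± 0.43 (adjusted p = 0.00104), and 4.09 without HPD Veh 4 (adjusted p = 4.08e-05). The other genes named passed the test of the difference without HPD Veh 4, and not with all 16 libraries. Grn, which encodes the lysosomal protein progranulin, rose on the NPD from 86.3, 97.9, 104 and 101 CPM to 202, 293, 250 and 285 CPM (1.40 ± 0.20, adjusted p = 0.000125). On the HPD it was at 158, 157, 136 and 265 CPM in Veh and 143, 201, 172 and 199 CPM in Cort (difference -1.41 ± 0.28, adjusted p = 0.0861, and -1.16 with adjusted p = 0.0441 without HPD Veh 4). Thus Grn was separated by Cort on the NPD and overlapped on the HPD.

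Igf2r, the receptor that clears IGF2 and sorts lysosomal enzymes, rose on the NPD from 13.4, 12.2, 16.1 and 14.2 CPM to 21.2, 27.9, 29.9 and 30.5 CPM (0.97 ± 0.15, adjusted p = 0.000249). On the HPD its values were 23.9, 20.1, 21.5 and 21.6 CPM in Veh and 19.8, 19.7, 21.1 and 19.4 CPM in Cort (difference -1.09 ± 0.20, adjusted p = 0.0655, and -1.10 with adjusted p = 0.0499 without HPD Veh 4). The HPD levels lay between those of the NPD groups, apart from 1 Cort library on the NPD at 21.2 CPM. Apol9b, an interferon-inducible apolipoprotein L gene with a close paralog, fell on the NPD from 47.1, 63.4, 62.1 and 68.4 CPM to 27.4, 41.9, 21.8 and 18.6 CPM (-1.14 ± 0.22, adjusted p = 0.00246). On the HPD it was at 123, 89.7, 85.3 and 101 CPM in Veh and 176, 143, 129 and 119.9 CPM in Cort (difference 1.65 ± 0.30, adjusted p = 0.0655, and 0.0441 without HPD Veh 4). Lpp, a focal adhesion gene, was at 28.3, 22, 28.4 and 26.9 CPM in Veh and 37.4, 34.3, 44.0 and 58.1 CPM in Cort on the NPD (0.72 ± 0.19, adjusted p = 0.0199). This call was lost without NPD Cort 3 (adjusted p = 0.0527), NPD Cort 4 (0.0881) or NPD Veh 2 (0.0771). On the HPD the values of Lpp were 34.6, 23.2, 37.0 and 31.9 CPM in Veh and 17.2, 17.6, 24.6 and 18.5 CPM in Cort (difference -1.42 ± 0.26, adjusted p = 0.0655, and 0.0441 without HPD Veh 4). For Lpp and Apol9b the effects had opposite signs on the diets.

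**Figure D5:**
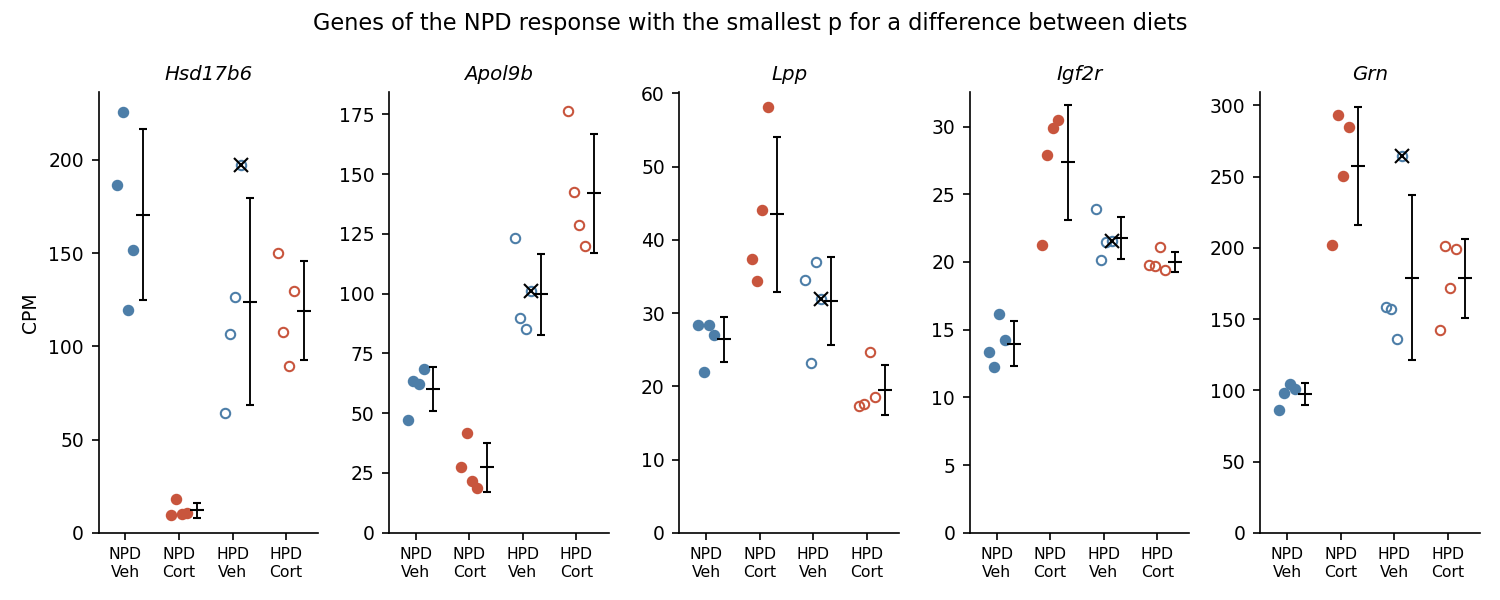
CPM (y axis) of genes whose response to Cort was compared between diets, in the 16 liver libraries, with filled points for the NPD, open points for the HPD, a black cross for HPD Veh 4, and bars at the mean with SD. Hsd17b6 is between 9.36 and 18.2 CPM in the NPD Cort livers and at 64.4 CPM or more in the other 12.

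The interferon-stimulated list had a median of -0.54 on the NPD, with 4 genes lower and none higher. On the HPD its median was 0.55, with 7 higher and none lower. HPD Veh 4 was kept for these HPD values, and those without it are not given here. In edgeR's test of the diet difference, 32 of the list's 49 genes had an unadjusted p below 0.05, beside 1529 of 12282 genes tested. None of the 49 was called by edgeR, with or without HPD Veh 4, while DESeq2 called 8 and voom none. G6pc, at a log2 fold change of 0.05 on the NPD, rose on the HPD (1.41, adjusted p = 0.00677, and 1.17 with adjusted p = 0.00594 without HPD Veh 4). The difference of its effects between the diets was not called (1.37 ± 0.42, adjusted p = 0.212, and 0.196 without HPD Veh 4).

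To see which liver responses were not those of fat, the effect of Cort on the NPD was tested against that in eWAT. The fit took all 32 libraries as independent, since the labels do not say which liver and eWAT libraries share a mouse. The difference was called for 465 of 15940 genes (2.92%), and 226 of the 998 genes changed in liver were among them. In eWAT 790 genes (4.96%) were called, 2.56% higher and 2.40% lower. Of the 998, 614 had the same sign in eWAT, 112 were called there with the same sign and 22 with the opposite sign. The share of all genes tested with the same sign in both tissues was not computed, so the 614 cannot be set against it. Sult1e1 was at 29.1, 42.6, 18.6 and 23.5 CPM in Veh and 9.79, 13, 9.53 and 11.1 CPM in Cort in eWAT, where its log2 fold change was -1.39 (adjusted p = 0.0943), so that the liver effect was 8.40 ± 0.75 higher (adjusted p = 4.34e-07). Fmo5 (26.8, 24.5, 16.4 and 24.1 CPM in Veh, 21.3, 22.3, 20.9 and 19.2 CPM in Cort) overlapped between the groups of eWAT, with a difference of 2.07 ± 0.22 (adjusted p = 6.52e-07). Serinc3 did so too, at 409, 404, 407 and 434 CPM in Veh and 413, 429, 389.5 and 393 CPM in Cort (difference 1.74 ± 0.20, adjusted p = 1.83e-06). The induction of these 3 genes was thus measured in liver and differed from fat.

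Wfdc17 went the other way in eWAT, from 24.9, 24.3, 23.3 and 26.2 CPM to 59.6, 31.2, 62.8 and 42.8 CPM (0.99, adjusted p = 0.0101), against its fall in liver (difference -3.13 ± 0.35, adjusted p = 8.83e-07). Pcsk6, a proprotein convertase gene, rose in liver from 34.5, 36.3, 49.5 and 36.7 CPM to 57.6, 73.7, 69.8 and 73.3 CPM (0.80 ± 0.16, adjusted p = 0.00423). In eWAT Pcsk6 fell from 64.4, 64.0, 43.3 and 64.8 CPM to 28.2, 21.2, 21.8 and 26.9 CPM (-1.27, adjusted p = 2.49e-05), and the difference was 2.08 ± 0.26 (adjusted p = 4.78e-06). Both genes thus moved in opposite directions in liver and fat. The class II genes moved alike in direction, with log2 fold changes in eWAT of -4.33 for H2-Aa, -4.35 for H2-Ab1, -4.53 for H2-Eb1 and -4.01 for Cd74, and edgeR called none of the 6 for the difference between the tissues. Of the Kupffer cell and macrophage list, 2 genes rose and 1 fell in eWAT, where 9 fell in liver, and 6 were called for the difference. Some of these markers were too low in eWAT for a fall to be seen there. Clec4f was at 0 CPM in each eWAT library on the NPD. In eWAT Veh, Cd5l was at 0.662, 0.633, 0.756 and 0.391 CPM and Vsig4 at 0, 0.896, 0.850 and 1.12 CPM. Timd4 was at 4.06, 2.69, 2.22 and 2.25 CPM there and Adgre1 at 32.1, 25.1, 33.3 and 33.9 CPM.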

How the data were processed

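Whole RNA of liver and eWAT was measured with QuantSeq 3′ mRNA-Seq. The values deposited by the authors are raw counts for each Ensembl gene, 1 column per library, and all columns were used. The submitters' processing notes name GRCm38, mm10, R 4.0.3 and limma. The aligner and the counting program are not given in the sources used here. Of 47643 gene IDs, 47224 were named from GENCODE M21 and 22199 had no count in any library.

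Counts were tested in R 4.3.3 with edgeR 4.0.16 (quasi-likelihood, robust). Genes passed filterByExpr at a minimum count of 10 and a minimum total of 15, and TMM factors scaled the libraries. All 16 liver libraries entered the fit with 1 mean per group, so that 4 groups shared the estimate of spread. The difference between diets was an interaction in the same fit, and that between tissues came from all 32 libraries with 8 group means. Benjamini-Hochberg adjusted p below 0.05 made a call. Deposited counts were also turned into CPM with the TMM-scaled totals for display. limma 3.58.1 and DESeq2 1.42.0 served as alternatives, as did other scalings, no filter, a replicate block and leaving out each library. The scripts were tested on simulated data.

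Genes named are the 12 that rose and the 12 that fell with the smallest p and no overlap, the 6 each way with the largest change at 10 CPM or more, the 5 with the smallest p for each difference, members of the lists described and some glucocorticoid genes. Some genes under this rule are not reported here. Of 1175 gene list entries, 1172 matched the table. The members and the lists were chosen with earlier results of these data known. No 2 replicates held identical values.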

Additional observations from a re-analysis of the deposited data

Results flagged for a closer look

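In 214 groups of 4 livers on the NPD that were examined for the named genes, 10 values in 10 genes stood far from the other 3 of their group, and chance alone flags about 1 in 20 groups. Among Veh livers, Veh 4 was high for Fmo5 at 414 CPM (293 to 302 in the others) and for Crtc2 at 11 CPM (4.42 to 5.52), and it held the 0.0861 CPM of Rasl10b, which was at 0 in the others. Veh 3 was high for Pcsk6 at 49.5 CPM (34.5 to 36.7) and Mttp at 101 CPM (71.5 to 71.9), and Veh 2 for Fam107a at 1.08 CPM (0 to 0.172). Among Cort livers, Cort 4 was high for Acaca at 118 CPM (39.6 to 50) and Vsig4 at 20.3 CPM (17 to 17.4). Cort 2 was high for Hsd17b6 at 18.2 CPM (9.36 to 10.6), and Cort 1 for Trbc2 at 0.236 CPM, with 0 in the others.

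Effects of Cort that differed between diets in a test of the difference itself (HPD minus NPD, log2 scale) were those of Hsd17b6, at 3.77 with all liver libraries and 4.09 without HPD Veh 4, and, without that library, of Apol9b at 1.65, Lpp at -1.42, Igf2r at -1.10 and Grn at -1.16. Effects that differed between tissues (liver minus eWAT, on the NPD) were those of Sult1e1 at 8.40, Fmo5 at 2.07, Serinc3 at 1.74, Pcsk6 at 2.08 and Wfdc17 at -3.13.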

How the results depend on the processing

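The 998 calls kept their sign in each fit that left out NPD Cort 3, HPD Veh 4 or both, and the count of genes called ran from 556 to 1565 when any 1 liver library was left out. It was 1684 with the NPD groups alone, 1958 with limma voom quality weights, 1415 with DESeq2, 872 with voom, 862 without a filter, 988 with DESeq2 size factors, 815 without TMM (390 of them higher), and 1092 without both HPD Veh 4 and NPD Cort 3, an alternative chosen after seeing the data. The replicate block gave 956, and the numbers do not pair the livers (correlations of deviations between -0.09 and 0.00). For the difference between diets the count was 1 to 14 when 1 library was left out, 0 without TMM, 97 with DESeq2, 6 with quality weights, 7 without a filter, 2 without both libraries and 1 with the replicate block. For the difference between tissues it was 771 with DESeq2, 435 with the replicate block and 315 to 471 when 1 NPD library was left out, and 635 without HPD Veh 4, an alternative added after seeing the data.

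Of 94 named genes called, 20 lost the call in at least 1 setting. Among them, Serpina5, Timp4 and Ugt2b38 lost it in 2 settings each, and Hectd2os and Mup-ps20 in 1 each. Signs turned for some genes that were not called and for some list medians. Without NPD Cort 3 the median of apolipoproteins went from 0.14 to -0.062, of fatty acid oxidation genes from -0.019 to 0.10 and of acute phase proteins from 0.077 to -0.015. Over the fits without 1 library, Igfbp1 ran from -0.21 to 0.15, Tsc22d3 from -0.047 to 0.40, Per1 from -0.18 to 0.41, G6pc from -0.045 to 0.19, the median of cholangiocyte markers from -0.35 to 0.025 and that of exocrine pancreas markers from -2.90 to 0.31. Igfbp1 was also at 0.011 with voom, 0.047 with the replicate block and 0.0075 without both libraries. The cause was not tested. Genes with few counts at these depths did not enter the test.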

Other observations

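A few bile acid genes were called, in both directions. Of 26 listed genes of bile acid synthesis and transport, 25 were tested, 2 rose and 5 fell (median -0.11). When 1 library was left out, 1 to 4 rose and 3 to 5 fell, with 1 rising without Veh 1, Veh 2, Cort 2 or Cort 4 of the NPD and 4 without NPD Veh 4, HPD Veh 3 or HPD Veh 4. Cyp2c70, which makes the muricholic acids of mice, fell from 494, 418, 453 and 447 CPM to 198, 115, 203 and 160 CPM (-1.42 ± 0.23, adjusted p = 0.000604). Cyp7a1, the rate-limiting enzyme of bile acid synthesis, was at 10.3, 8.33, 17.4 and 44.6 CPM in Veh and 99.5, 103, 87.3 and 48.7 CPM in Cort, and did not pass the test (2.07 ± 0.63, adjusted p = 0.0637) although the groups did not overlap. Among 18 iron genes, 17 were tested, 2 rose and 2 fell. None rose without NPD Veh 1, NPD Veh 2 or NPD Cort 2, and 4 fell without HPD Veh 4. Hamp2, the second hepcidin gene of mice, had values of 188, 142, 366 and 706 CPM in Veh and 18.5, 80.1, 8.20 and 80.4 CPM in Cort (-2.90 ± 0.73, adjusted p = 0.0277), and its call was lost without Cort 1 (adjusted p = 0.0661) or Veh 4 (adjusted p = 0.0729). Slc40a1, the iron exporter that hepcidin removes from the cell surface, rose by a log2 fold change of 0.63 ± 0.18 (adjusted p = 0.0377), a call lost when any of 6 libraries was left out (adjusted p = 0.0663 to 0.122).

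Among 33 genes of the unfolded protein response and ATF4 targets, 32 were tested, and on the NPD 2 rose and 1 fell. On the HPD none rose and 8 fell, with HPD Veh 4 kept among the Veh livers. The HPD count without that library is not given here. Over all genes tested, 4.64% rose and 3.50% fell on the NPD, and 4.58% and 4.49% on the HPD. For the difference between the diets, 9 genes of this list had an unadjusted p below 0.05 in edgeR, beside 1529 of 12282 genes tested. None of the list was called by edgeR, with or without HPD Veh 4, while DESeq2 called 2 and voom none. On the NPD none rose without Veh 2, Veh 4, Cort 3 or Cort 4. For the Cort effect on the NPD, 2852 of the 12274 genes tested had an unadjusted p below 0.05 in edgeR. The circadian clock list had no gene called by edgeR of 20 tested, with 7 at an unadjusted p below 0.05, 4 called by DESeq2, none by voom and 4 by voom with quality weights, against 5 that rose without HPD Veh 4 and 4 without HPD Veh 3. Of 31 cell cycle genes 22 were tested and none was called by edgeR, DESeq2 or voom, with 2 at an unadjusted p below 0.05 and 2 called by voom with quality weights, and without HPD Veh 4 1 rose and 1 fell. Exocrine pancreas markers summed to 44.2 to 93.6 CPM in Veh and 18.4 to 28.3 CPM in Cort, and without Cela1 to 0.430 to 29.7 and 1.02 to 10.1 CPM. Adipocyte markers summed to 2887 to 4536 CPM in Veh and 382 to 687 CPM in Cort, and without Car3, which hepatocytes also express, to 43.2 to 97.2 and 63.8 to 93.1 CPM.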
